A study of Mus musculus with 8 samples.

Results

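Integrins are adhesion receptors made of 1 alpha and 1 beta subunit, and the 10 subunit genes Itga4, Itga5, Itgal, Itgam, Itgax, Itgav, Itgb1, Itgb2, Itgb5 and Itgb7 were followed in macrophages of mouse skin wounds. They were chosen by name from 55414 genes in the count table, with earlier results of these data known, and each is counted over its exons. RNA-seq libraries came from wound beds excised 3 days after injury (day 3, 5 libraries, a to e) and 1 day after injury (day 1, 3 libraries, a to c). In both groups each library was a pool of 6 wounds from 3 mice, digested with collagenases, and cells were taken with magnetic beads against F4/80, a surface protein of mouse macrophages encoded by Adgre1. Genotype, strain, sex and age are not given in the sources used here, and no unwounded skin was in the comparison. The protocols state 6 samples at each time, and the 8 libraries in hand were analysed. Whether pools shared animals is not stated, so the p-values measure how far pools differed, which may be partly technical.

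Alpha and beta subunits pair in the endoplasmic reticulum and reach the cell surface only as pairs, so the level of a subunit's mRNA is not the level of a receptor. On leukocytes the beta2 subunit pairs with alphaL (LFA-1), alphaM (Mac-1, CD11b) or alphaX (CD11c), which bind ICAM-1, complement fragment iC3b and fibrinogen. The beta1 subunit pairs with alpha4, which binds VCAM-1, and with alpha5, which binds fibronectin. The alphav subunit pairs with beta1, beta3, beta5, beta6 or beta8 and binds vitronectin and other proteins with an RGD motif, and beta7 pairs with alpha4 or alphaE.

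Across the libraries the cells carried high levels of Itgb2, Itgam and Itgb1, and of the 10 subunits none passed the test between the days. Itgb7 alone had ranges that did not overlap, with a mean of 25.7 ± 9.36 CPM on day 3 and 64.7 ± 9.14 CPM on day 1 (SD, n = 5 and 3). Ranges did not overlap for 14.1% of all genes tested, and for 8.76% with day 3 lower. CPM are counts scaled to the library total (edgeR's CPM) with scaling factors between libraries, n is 5 for day 3 and 3 for day 1 throughout, and a fold change is the log2 of day 3 over day 1 with its standard error. Of 15371 genes tested (edgeR's quasi-likelihood F test), 2 were called at a Benjamini-Hochberg adjusted p under 0.05, which is 0.0130% of them, both lower on day 3. At an unadjusted p under 0.05 there were 3 of the 10 subunits, Itgb7, Itga5 and Itgb2, each lower on day 3, where 10.5% of all genes tested were lower and 5.16% higher at that p. The subunits' median log2 fold change was -0.13 (5 above 0 and 5 below), beside -0.17 over all genes tested. DESeq2 called 1 of the 10, Itgb7, where it called 7.23% of all genes, and limma voom also called Itgb7 alone, where it called 5.37%. In bulk libraries, fewer cells of a type and less RNA per cell cannot be told apart.

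Total counts ran from 50515389 to 56661695 on day 3 and from 41566151 to 60289310 on day 1. The number of genes with a count was 14952 to 20557 on day 3 and 23928 to 27315 on day 1, and the part of this difference in the results was not tested. All 12 macrophage markers were detected on both days, led by Lyz2 and Cd68, and their summed level was 29578 to 36606 CPM on day 3 and 18077 to 20689 CPM on day 1. Without Lyz2, the sums overlapped at 11388 to 13918 CPM on day 3 and 10792 to 12254 CPM on day 1. None of the 12 was called by edgeR, with 6 fold changes above 0 and 6 below, and with 4 higher and 2 lower at an unadjusted p under 0.05. Fcgr1, an Fc receptor gene, averaged 433 ± 60.5 CPM on day 3 and 845 ± 131 CPM on day 1 (log2 fold change -0.97 ± 0.17, edgeR adjusted p = 0.0645). Adgre1, the bead target, averaged 1129 ± 76.3 CPM on day 3 and 819 ± 126 CPM on day 1 (log2 fold change 0.46 ± 0.15, edgeR adjusted p = 0.170). The 14 neutrophil markers, led by S100a8 and S100a9, reached a sum of 3773 CPM in day 3 b, with 451 to 680 CPM in the remaining libraries of that day, against 849 to 4022 CPM on day 1, with the top in day 1 c. Neutrophils carry beta2 integrins too, and the part of these cells in the results was not tested. The 7 monocyte markers, led by F13a1 and Ccr2, summed to 2945 to 4169 CPM on day 3 and 4322 to 5756 CPM on day 1, and circulating monocytes carry Itgam, Itgb2 and Itga4. The fold changes of F13a1 and Ccr2 were -0.05 ± 0.23 and 0.03 ± 0.25. Chil3, a chitinase-like gene of inflammatory monocytes in mice and 1 of the 2 genes called over all genes, fell to 148 ± 22.95 CPM on day 3, against 1063 ± 543 CPM on day 1 (log2 fold change -2.85 ± 0.30, edgeR adjusted p = 0.0267). Ly6c2, Plac8 and Vcan were also lower in every day 3 library than in every day 1 library, with edgeR adjusted p of 0.0603, 0.0863 and 0.0948. Such a separation with day 3 lower was found for 4 of the 7 monocyte markers and for 8.76% of all genes tested. The part of the monocyte markers in the results was not tested either.

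In the annotation used for counting (GRCm39), Itgal (chr7:126895432-126934310), Itgam (chr7:127661812-127717663) and Itgax (chr7:127728719-127749829) lie on the plus strand of 1 chromosome, with Itgam and Itgax next to each other. Itgb2 lies at chr10:77366086-77401542, Itgb1 at chr8:129412135-129459681 and Itgb5 at chr16:33650035-33769708, all on the plus strand. Itga4 (chr2:79085770-79163467) and Itgav (chr2:83554741-83637260) share a chromosome on the plus strand, and Itgb7 (chr15:102124430-102140379) and Itga5 (chr15:103252713-103275190) share another on the minus strand. No 2 of the 10 genes share exon bases.

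Itgam and Itgax are neighbouring paralogues whose levels lay far apart in these libraries, and Itgb7 is the subunit whose ranges did not overlap. The 250 bases before the RefSeq start of these 3 genes (GRCm38.p6, 5′ to 3′ on the gene's strand) are therefore shown, with matches to any of 5 motifs in capitals. They lie at chr7:128062390-128062639 (+) for Itgam, chr7:128129300-128129549 (+) for Itgax and chr15:102231936-102232185 (-) for Itgb7.
Itgam: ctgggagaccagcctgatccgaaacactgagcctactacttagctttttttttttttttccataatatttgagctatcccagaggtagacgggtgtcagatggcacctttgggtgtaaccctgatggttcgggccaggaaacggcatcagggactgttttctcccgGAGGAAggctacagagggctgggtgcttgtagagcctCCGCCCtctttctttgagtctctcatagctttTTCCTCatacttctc
Itgax: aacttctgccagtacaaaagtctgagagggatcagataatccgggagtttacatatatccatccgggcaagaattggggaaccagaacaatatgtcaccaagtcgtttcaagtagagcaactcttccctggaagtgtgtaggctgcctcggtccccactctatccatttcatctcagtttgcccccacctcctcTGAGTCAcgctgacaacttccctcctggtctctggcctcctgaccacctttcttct
Itgb7: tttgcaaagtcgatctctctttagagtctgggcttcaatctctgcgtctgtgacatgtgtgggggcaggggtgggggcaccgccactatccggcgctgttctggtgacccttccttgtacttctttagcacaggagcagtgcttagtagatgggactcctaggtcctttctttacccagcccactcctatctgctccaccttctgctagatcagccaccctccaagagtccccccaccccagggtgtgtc
The motifs, searched on both strands, were the core of PU.1, a factor of the myeloid lineage (GAGGAA), AP-1 (TGANTCA), Sp1 (GGGCGG), the TATA box (TATAAA) and an interferon response element (GAAANNGAA). Itgam held the PU.1 core at bases -84 and -15 and the Sp1 motif at -47, counted to the first base of the match, with no overlap between matches. Itgax held 1 AP-1 match at -56, and the Itgb7 window held none of the 5. Among 32851 promoter windows of the same length, 23.3% held the PU.1 core, 6.75% AP-1, 32.7% Sp1, 12.4% the TATA box and 7.13% the interferon element. Windows were found for 8 of the 10 genes, not for Itgal and Itgb2. In the windows not shown, the PU.1 core also occurred in Itgav (2 matches), Itga5 (1) and Itgb1 (1), but not in Itga4 or Itgb5. The Sp1 motif occurred in Itga4, Itga5, Itgb1 and Itgb5, and the interferon element in Itgav. A match is a run of letters, not a known site.

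**Figure D1:**
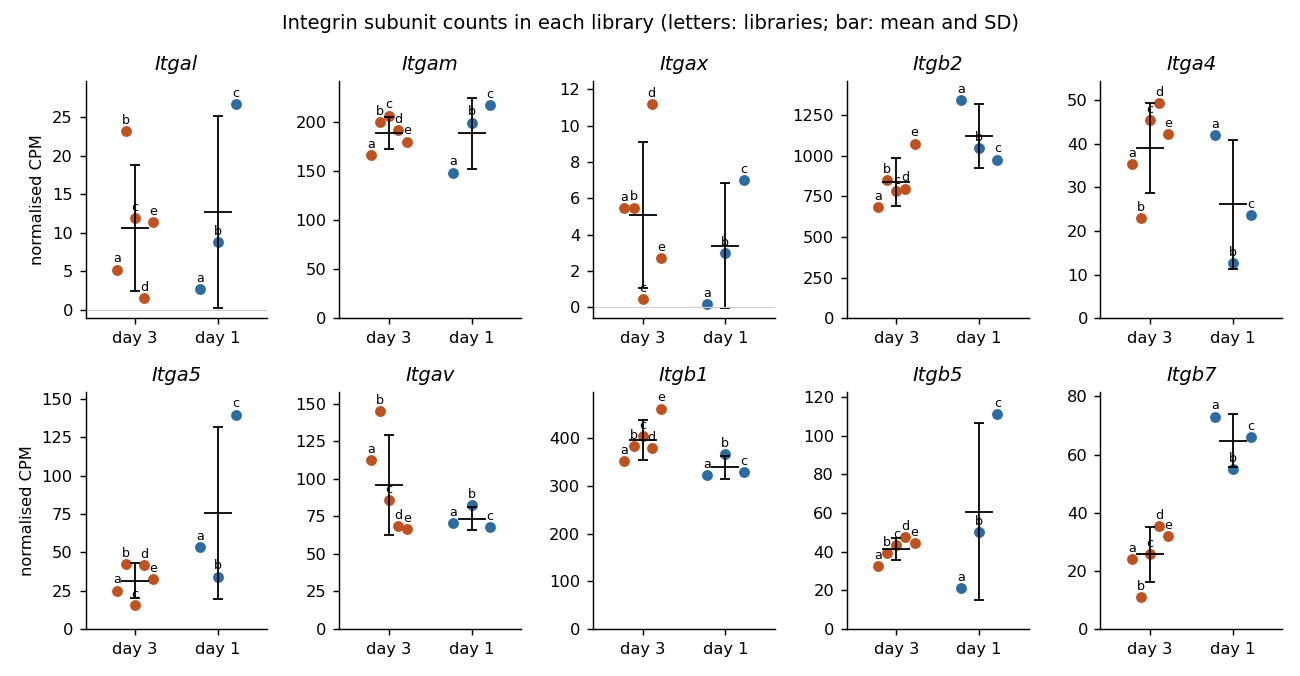
Normalised CPM of each of the 10 integrin subunits in every library, with day 3 (orange) left of day 1 (blue); points are libraries, bars the mean and error bars the SD. Itgb7 lay between 11.1 and 35.4 CPM in the 5 day 3 libraries and between 55.0 and 73.1 CPM in the 3 day 1 libraries, and the ranges of the other 9 overlap. Of all genes tested, 14.1% had ranges that did not overlap.

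The common beta chain of the leukocyte integrins, Itgb2, had the highest level of the set. It was at 686, 851, 784, 799 and 1076 CPM in day 3 a to e, and at 1346, 1048 and 977 CPM in day 1 a to c. Day 3 e reached into the day 1 range, and the other 4 day 3 libraries lay below it. The means were 839 ± 145 CPM on day 3 and 1124 ± 195 CPM on day 1, a log2 fold change of -0.42 ± 0.18 (95% interval -0.83 to -0.0081). The edgeR p was 0.0465 before adjustment and 0.310 after it, so Itgb2 was not called.

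Itgam encodes alphaM, the alpha chain of Mac-1, used to bind iC3b-coated particles and fibrinogen. It was at 166, 200.03, 207, 192 and 180.1 CPM in day 3 a to e, and at 148, 199.5 and 218 CPM in day 1 a to c. All day 3 values lay inside the day 1 range, and the lowest and the highest library were both from day 1. The mean was 189 CPM on both days, with an SD of 16.2 on day 3 and 35.9 on day 1, and the log2 fold change was 0.0028 ± 0.17, with a 95% interval of -0.37 to 0.38 (edgeR adjusted p = 0.997). The sign turned to -0.17 without day 1 a. Of the 5024 exon bases of Itgam in the annotation used for counting, 3450 (68.7%) are shared with Gm49368, whose transcript Gencode tags as a read-through, and 1574 are its own. Gm49368 held 0 counts in 7 libraries and 2 in day 3 b, so the Itgam counts rest on the unshared bases.

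Itgal, the alpha chain of LFA-1, a receptor for ICAM-1, was low and uneven between libraries. It was at 5.24, 23.1, 11.9, 1.55 and 11.4 CPM in day 3 a to e, and at 2.69, 8.78 and 26.7 CPM in day 1 a to c. Its highest values on each day, in day 3 b and day 1 c, were in the same libraries as the highest neutrophil marker sums of each day (3773 and 4022 CPM), and the part of those cells was not tested. The means were 10.6 ± 8.22 CPM on day 3 and 12.7 ± 12.5 CPM on day 1, with a log2 fold change of -0.26 ± 0.87 (95% interval -2.21 to 1.69, edgeR adjusted p = 0.927). Without day 1 c the fold change was 0.87, of the other sign.

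Itgax encodes alphaX, known as CD11c, a marker of dendritic cells and of some tissue macrophages in mice. It was at 5.45, 5.49, 0.472, 11.2 and 2.71 CPM in day 3 a to e, and at 0.176, 3.00 and 6.99 CPM in day 1 a to c. Each day had a library below 0.5 CPM, day 3 c with 24 counts and day 1 a with 7, and the ranges overlapped. The means were 5.06 ± 4.01 CPM on day 3 and 3.39 ± 3.42 CPM on day 1 (log2 fold change 0.58 ± 1.17, 95% interval -2.05 to 3.20, edgeR adjusted p = 0.877). Without day 1 a the fold change was -0.016. The 8 dendritic cell markers, led by Ccr7 and Cd209a, summed to 60.6 to 162 CPM on day 3 and 90.9 to 198 CPM on day 1, with the top in day 1 a, where Itgax was lowest.

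Levels of different genes were compared as normalised CPM per kb of exon that no other gene shares. On that scale Itgam averaged 120.0 ± 10.3 on day 3 and 119.8 ± 22.8 on day 1, Itgal 1.62 ± 1.25 and 1.94 ± 1.90, and Itgax 1.05 ± 0.835 and 0.706 ± 0.713, each with day 3 before day 1. Itgam thus made 97.8% ± 0.809 of the sum of the 3 alpha chains on day 3 and 98.1% ± 1.72 on day 1. With all exon bases in place of the unshared ones, an alternative chosen after seeing the data, its share was 93.5% ± 2.31 on day 3 and 94.2% ± 5.00 on day 1. Itgb2, at 275 ± 47.6 per kb on day 3 and 368 ± 64.0 on day 1, stood at 2.25 ± 0.436 times that sum on unshared bases on day 3 and 3.18 ± 1.29 times on day 1, and the ranges of this ratio overlapped. Per kb of all exon bases, Itgam averaged 37.6 on day 3 and 37.5 on day 1, so the ratio depends on which bases are used. These shares and ratios are descriptions and were not tested.

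**Figure D2:**
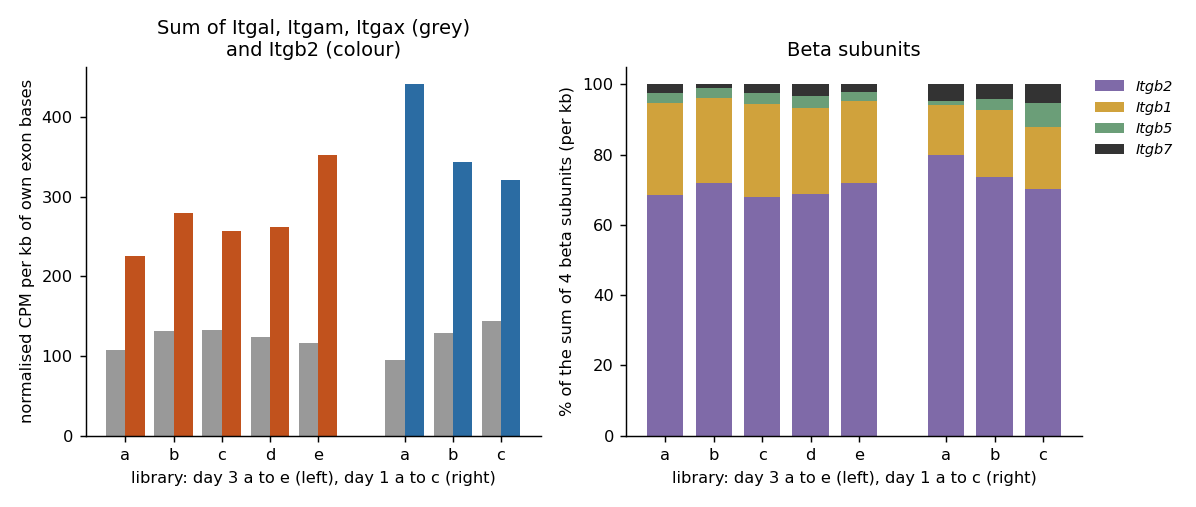
Left, level per kb of unshared exon of Itgb2 (coloured bars) and of the sum of its partners Itgam, Itgal and Itgax (grey bars) in each library, on a linear axis. Right, shares of Itgb1, Itgb2, Itgb5 and Itgb7 in the summed level of these 4 beta chains. Day 3 libraries stand left of day 1 libraries. Itgb2 lies above the sum of its partners in all 8 libraries.

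Among the alpha chains that pair with beta1 or beta7, Itga4, a receptor chain for VCAM-1 and fibronectin used in monocyte entry, was at 35.3, 22.9, 45.4, 49.4 and 42.2 CPM in day 3 a to e, and at 42.1, 12.7 and 23.6 CPM in day 1 a to c. Day 3 c, d and e lay above every day 1 library, and day 3 b below 2 of them. The means were 39.0 ± 10.4 CPM on day 3 and 26.1 ± 14.8 CPM on day 1 (log2 fold change 0.58 ± 0.40, 95% interval -0.32 to 1.48, edgeR adjusted p = 0.552). The fold change was 1.07 without day 1 a and 0.26 without day 1 b. Of its exon bases, 1124 of 13978 (8.04%) are shared with Cerkl on the opposite strand, and reads there cannot be told apart without strand.

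Itga5 encodes alpha5, which with beta1 forms the main fibronectin receptor. It was at 24.95, 42.5, 15.5, 41.8 and 32.3 CPM in day 3 a to e, and at 53.2, 34.1 and 140 CPM in day 1 a to c. Day 1 c stood far above the other 7 libraries, and day 3 b and d lay above day 1 b, so the ranges overlapped. The means were 31.4 ± 11.4 CPM on day 3 and 75.7 ± 56.3 CPM on day 1, a log2 fold change of -1.27 ± 0.46 (95% interval -2.31 to -0.23). The edgeR p was 0.0213 before adjustment and 0.210 after it, and without day 1 c the fold change was -0.48. With no filter on low counts, where 3.50% of all genes were called, Itga5 was called with an adjusted p of 0.0113, and over all alternatives its adjusted p ran from 0.0113 to 0.637.

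Itgav, the alphav chain of vitronectin and RGD receptors that also take up apoptotic cells, was at 113, 145, 86.0, 68.6 and 66.5 CPM in day 3 a to e, and at 70.5, 82.6 and 67.8 CPM in day 1 a to c. Day 3 a, b and c lay above all day 1 libraries, day 3 d inside their range and day 3 e below it. The means were 95.8 ± 33.2 CPM on day 3 and 73.6 ± 7.87 CPM on day 1 (log2 fold change 0.38 ± 0.28, 95% interval -0.24 to 0.997, edgeR adjusted p = 0.580), and the fold change was 0.18 without day 3 b. The spread between libraries was wider on day 3, with a coefficient of variation of 34.7% on day 3 and 10.7% on day 1. Of its exon bases, 634 of 10744 (5.90%) are shared with Gm13684.

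Itgb1, the beta chain with the most alpha partners, varied little. It was at 352, 384, 405, 379 and 462 CPM in day 3 a to e, and at 323, 367 and 329 CPM in day 1 a to c. Of the day 3 libraries, 4 lay above all day 1 libraries and day 3 a lay inside their range. The means were 397 ± 41.5 CPM on day 3 and 339 ± 24.1 CPM on day 1 (log2 fold change 0.22 ± 0.15, 95% interval -0.10 to 0.55, edgeR adjusted p = 0.528).

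Itgb5, a partner of alphav in vitronectin binding, was at 32.4, 39.2, 43.2, 47.6 and 44.6 CPM in day 3 a to e, and at 21.0, 50.1 and 111 CPM in day 1 a to c. The day 1 libraries held both the lowest and the highest value, with all day 3 values between them. The means were 41.4 ± 5.87 CPM on day 3 and 60.7 ± 45.9 CPM on day 1 (log2 fold change -0.55 ± 0.42, 95% interval -1.50 to 0.40, edgeR adjusted p = 0.605). Without day 1 c the fold change was 0.21, of the other sign.

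Itgb7 encodes beta7, which with alpha4 forms the gut homing receptor of lymphocytes and with alphaE a receptor for E-cadherin. It was at 24.1, 11.1, 25.9, 35.4 and 32.0 CPM in day 3 a to e, and at 73.1, 55.0 and 66.1 CPM in day 1 a to c. Every day 3 library lay below every day 1 library, a separation in either direction that 14.1% of all genes tested had, and 8.76% had with day 3 lower. The mean on day 1 was 2.52 times that on day 3, and the log2 fold change was -1.33 ± 0.34 (95% interval -2.08 to -0.58). The edgeR p was 0.00282 before adjustment and 0.0838 after it, so Itgb7 was not called. Its adjusted p was 0.0113 with DESeq2, 0.0351 with limma voom and 0.0112 with no filter on low counts, and ran from 0.0112 to 0.520 over all alternatives. Leaving out 1 library at a time gave fold changes of -1.47 to -1.14.

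Beta7 is known from T cells, mast cells and dendritic cells, whose markers are given beside it, and the part of these cells in the Itgb7 result was not tested. The 14 T and NK cell markers, led by Cd28 and Cd2, summed to 18.6 to 42.6 CPM on day 3 and 11.6 to 32.5 CPM on day 1. Cd28 was at 6.61 to 23.5 CPM on day 3 and 0.201 to 5.74 CPM on day 1, and Cd8a was at 0 in every day 3 library. Of the 10 T and NK cell markers tested, 5 had fold changes above 0 and 5 below. Ranges did not overlap for 1 higher on day 3 and 1 lower, beside 5.31% and 8.76% of all genes tested. The 12 mast cell and eosinophil markers, led by Ccr3 and Kit, summed to 3.58 to 10.5 CPM on day 3 and 10.3 to 19.3 CPM on day 1, with Tpsb2, Mcpt4 and Prg2 at 0 in all 8 libraries. The dendritic cell sums given with Itgax (60.6 to 162 CPM on day 3 and 90.9 to 198 CPM on day 1) overlapped between the days. Itgae, which encodes alphaE, held 0 counts in every day 3 library, which allows up to 0.0594 CPM each, and 69, 13 and 21 counts in day 1 a, b and c. It was not called (edgeR adjusted p = 0.0850), and 8.76% of all genes tested had ranges apart with day 3 lower. Fewer genes of any kind had a count on day 3 (14952 to 20557) than on day 1 (23928 to 27315). The part of this difference in the Itgae and Cd8a values was not tested. The other partner of beta7, Itga4, was described above.

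**Figure D3:**
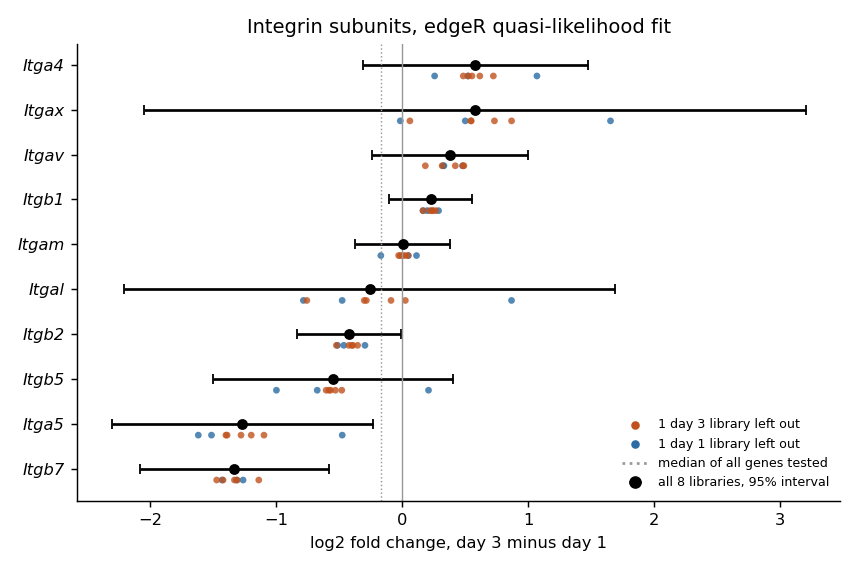
Log2 fold change of day 3 over day 1 for each of the 10 subunits, with 95% intervals from edgeR. Itgb7 at -1.33 and Itga5 at -1.27 lie farthest below 0, the interval of Itgb2 ends just below 0, and those of the other 7 cross it.

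Ordered by mean level per kb over the 8 libraries, the subunits ran Itgb2, Itgam, Itgb1, Itgb7, Itgb5, Itga5, Itgav, Itga4, Itgal and Itgax. The order of the day 1 means was the same, while on day 3 Itgb5 and Itgav came before Itgb7, and Itga5 after it. The ranges over libraries separated Itgb2 from Itgam, Itgb1 from Itgb7 and Itgav from Itga4. Itgam was above Itgb1 in 8 of 8 libraries although the ranges overlapped, and Itgb7 was above Itgb5 in 2 of 8. The ranges of the other neighbours overlapped too. Itgb5 was above Itga5 in 7 of 8 libraries, Itga5 above Itgav in 3, Itga4 above Itgal in 5 and Itgal above Itgax in 6. The place of Itgam before Itgb1 held on unshared bases only. Per kb of all exon bases, Itgam averaged 37.6 on day 3 and 37.5 on day 1, below Itgb1. Itgb1 averaged 97.2 ± 10.2 per kb on day 3 and 83.2 ± 5.92 on day 1, and Itgb7 averaged 9.27 ± 3.38 on day 3 and 23.4 ± 3.30 on day 1. Of the summed level of the 4 beta chains, Itgb1 made 23.1% to 26.3% on day 3 and 14.3% to 19.2% on day 1, and Itgb7 made 1.03% to 3.36% on day 3 and 4.24% to 5.23% on day 1. Both pairs of ranges were apart, while those of Itgb2 (mean 69.8% on day 3 and 74.5% on day 1) and Itgb5 (2.98% and 3.65%) overlapped. The shares sum to a fixed total, so they do not move independently, and they were not tested.

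The 17 integrin subunit genes outside the set were mostly low, and none of the 12 tested was called by edgeR over all genes, whereas 6 had an unadjusted p under 0.05 (2 higher on day 3 and 4 lower, beside 5.16% higher and 10.5% lower of all genes). DESeq2 and limma voom called 4 each, beside 7.23% and 5.37% of all genes. Itga6, the alpha6 chain of laminin receptors, ranked 8th of the 27 subunit genes per kb on day 3 and 11th on day 1, below Itga4 on day 1, and averaged 42.2 ± 11.1 CPM on day 3 and 13.1 ± 4.43 CPM on day 1, with all day 3 libraries above all day 1 libraries, as in 5.31% of all genes tested (log2 fold change 1.69 ± 0.34, edgeR adjusted p = 0.0829). Under a stricter filter on low counts it was the 1 of 3 tested that was called, where 1.79% of all genes were called. Itga9, whose product binds tenascin C and osteopontin with beta1, averaged 14.4 ± 3.63 CPM on day 3 and 3.65 ± 2.62 CPM on day 1 (1.98 ± 0.68, adjusted p = 0.184), again with no overlap. Itga1, a collagen receptor chain, averaged 15.99 ± 11.4 CPM on day 3 and 59.8 ± 21.5 CPM on day 1 (-1.90 ± 0.60, adjusted p = 0.148), with day 3 lower in every library.

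The alternative partners of alphav were low and uneven between libraries. Itgb3 was at 0 to 2.48 CPM on day 3 and 0.126 to 3.14 CPM on day 1. Itgb8 was at 0 to 5.53 CPM on day 3 and 0.0334 to 4.04 CPM on day 1, with 1 library well above the rest on each day. Itgb6, the chain known from epithelium, had 0 counts in all day 3 libraries and 105, 3 and 34 counts in day 1 a, b and c. Itgb6 was not among the genes tested, and fewer genes of any kind had a count on day 3, as given above. Of the beta chains known to pair with alphav, Itgb1 and Itgb5 were the ones above the highest Itgb3, Itgb6 and Itgb8 values in every library. Itga7, Itga8 and Itgb4 averaged 0.575, 1.30 and 0.0190 CPM on day 3 and 2.39, 5.35 and 3.19 CPM on day 1.

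**Figure D4:**
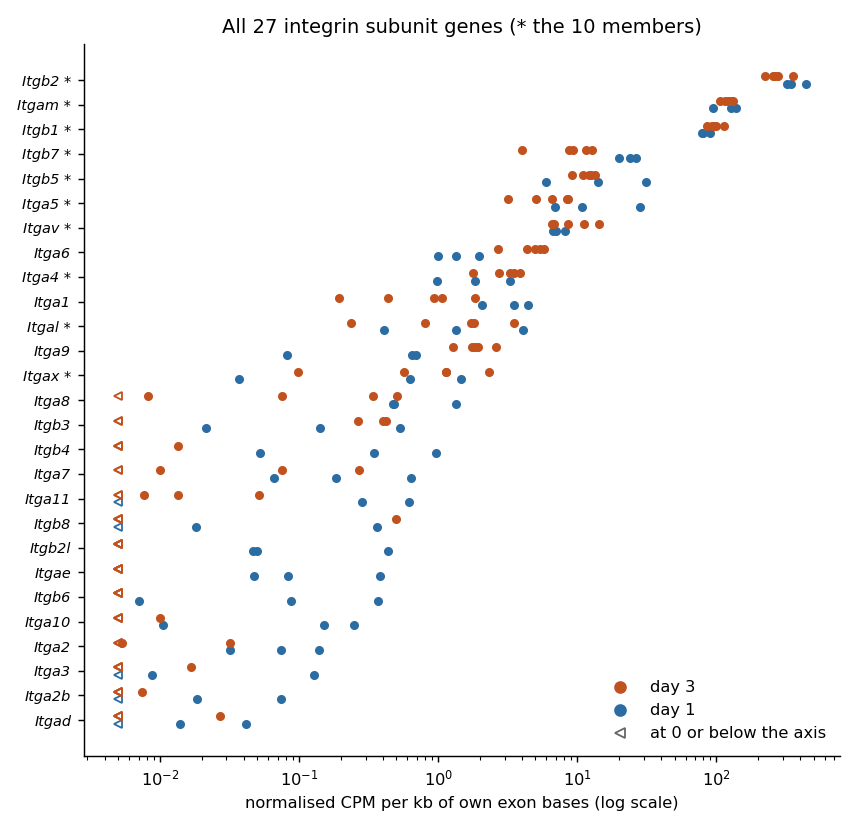
Level per kb of unshared exon for the 27 integrin subunit genes in each library, on a log axis, with day 3 above day 1 for each gene. Triangles mark libraries at 0 or below the axis. Itgb2, Itgam and Itgb1 stand apart at the top, and by its mean Itga6 is the 8th of the 27 on day 3 and the 11th on day 1.

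Of 50 genes for integrin activation and adhesion (talin, kindlins, Rap1, Src family kinases and their partners), 46 were tested and edgeR called none of them. Unadjusted p-values under 0.05 were found for 12, all lower on day 3 (10.5% of all genes were lower at that p), and the list's median log2 fold change was -0.41 beside -0.17 over all genes. DESeq2 called 7 (7.23% of all genes) and limma voom 3 (5.37% of all genes). Day 1 c was the highest library for 19 of the 46 (41.3%), as for 4 of the 10 subunits (Itga5, Itgal, Itgam and Itgb5), and for 18.7% of all genes tested. Dab2, an endocytic adaptor that binds beta chain tails, averaged 880 ± 135 CPM on day 3 and 1765 ± 331 CPM on day 1 (-1.003 ± 0.18, edgeR adjusted p = 0.0684), and was the 1 of 39 of the list called with the stricter filter, which called 1.79% of all genes. Rap1b, the small GTPase upstream of talin, averaged 464 ± 70.0 CPM on day 3 and 910 ± 503 CPM on day 1 (-0.97 ± 0.29, adjusted p = 0.134), with 1488 CPM in day 1 c. Plek, which encodes pleckstrin, and Cd47, a ligand of SIRP alpha that also associates with integrins, had fold changes of -0.04 ± 0.28 and 0.17 ± 0.16.

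Talin and kindlin-3 bind beta chain tails directly, and their genes were picked for this after their values were seen. Tln1 averaged 56.9 ± 15.2 CPM on day 3 and 87.5 ± 19.7 CPM on day 1 (log2 fold change -0.62 ± 0.25, edgeR adjusted p = 0.267). Fermt3 averaged 137 ± 30.9 CPM on day 3 and 220 ± 152 CPM on day 1 (-0.69 ± 0.37, adjusted p = 0.426), with 393 CPM in day 1 c.

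Of 34 integrin ligand genes, 26 were tested and edgeR called none, while 7 had an unadjusted p under 0.05 (4 higher on day 3 and 3 lower, beside 5.16% and 10.5% of all genes). DESeq2 called 7 where it called 7.23% of all genes, and limma voom called 3 where it called 5.37%. The median log2 fold change was 0.086. Thbs1, which encodes thrombospondin-1, a ligand of alphav integrins, averaged 1742 ± 512 CPM on day 3 and 3813 ± 474 CPM on day 1 (-1.13 ± 0.22, adjusted p = 0.0771), and was 1 of 2 ligand genes called with the stricter filter (of 15 tested, beside 1.79% of all genes). Spp1, which encodes osteopontin, a ligand of alphav, alpha4 and alpha9 integrins, was the highest at 17202 ± 2105 CPM on day 3 and 11309 ± 5174 CPM on day 1 (0.61 ± 0.30, adjusted p = 0.369). Tgfbi, an adhesion protein of the matrix, averaged 384 ± 32.7 CPM on day 3 and 1005 ± 792 CPM on day 1 (-1.39 ± 0.38, adjusted p = 0.0992).

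Col1a1, a collagen chain, averaged 19.7 ± 4.90 CPM on day 3 and 3.27 ± 0.318 CPM on day 1 (2.59 ± 0.40, edgeR adjusted p = 0.0603), and was the other ligand gene called with the stricter filter. It is also a fibroblast marker, and the 8 fibroblast markers, led by Col3a1 and Col1a1, summed to 61.7 to 131 CPM on day 3 and 9.99 to 39.0 CPM on day 1, with no overlap. The part of fibroblasts in the collagen result was not tested. Endothelial markers, led by Pecam1 and Kdr, summed to 13.3 to 31.6 CPM on day 3 and 30.5 to 71.3 CPM on day 1, and platelet markers, led by Pf4 and Treml1 and almost all Pf4, with Gp9 and Gp5 at 0, to 2055 to 3210 CPM on day 3 and 2605 to 4319 CPM on day 1. B and plasma cell markers, led by Cd79b and Ms4a1, summed to 17.6 to 36.1 CPM on day 3 and 1.36 to 13.4 CPM on day 1, and keratinocyte markers, led by Krt14 and Krt10, to 0.689 to 29.5 CPM on day 3 and 1.44 to 3.42 CPM on day 1.

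**Figure D5:**
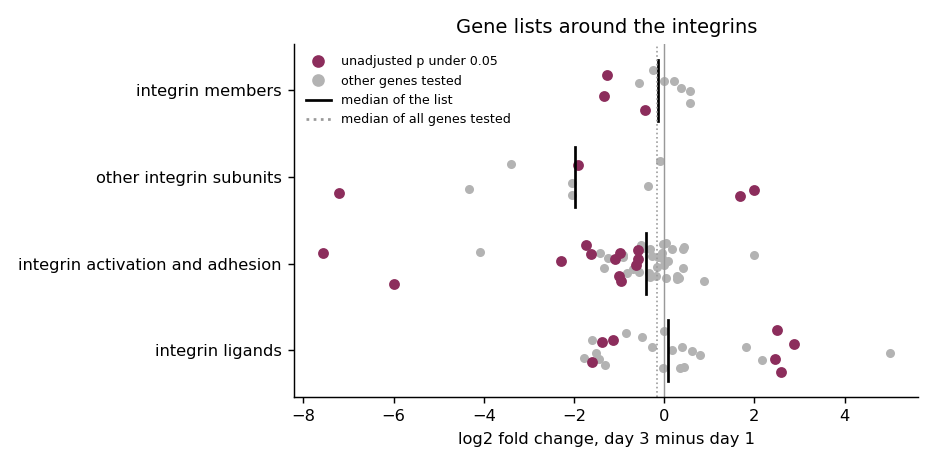
Log2 fold changes of day 3 over day 1 for the tested genes of the integrin set, the other integrin subunits, the activation and adhesion list and the ligand list; each point is a gene, genes at 0 in every library of a day are left out, dark points have an unadjusted p under 0.05, bars mark each list's median and the dotted line the median of all genes tested. The activation and adhesion genes lie mostly below 0, with 34 of 46 negative.

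For each subunit, the 2 genes with the most similar profile over the 8 libraries were searched among 3822 or 3823 abundant genes. The measure was the root mean square difference of log2(CPM + 0.5) values, centred on each gene's mean. Candidates had an average log2 CPM of at least 5, which Itgal (3.52) and Itgax (2.16) did not reach. Itgb7 was nearest to Irf7, an interferon regulatory factor (0.21), and Chid1 (0.28). Irf7 averaged 322 ± 86.5 CPM on day 3 and 876 ± 211 CPM on day 1 (log2 fold change -1.44 ± 0.25, edgeR adjusted p = 0.0630). Itga5 was nearest to Actg1, a cytoplasmic actin (0.30), and Hmga1 (0.30). Itgam was nearest to Swi5 (0.073) and Aprt (0.097), Itgb1 to Mdh1 (0.074) and Ppp1ca (0.10), and Itgb2 to Cln3 (0.11) and Lamp1 (0.12). Itga4 was nearest to Slc35b4 (0.12) and Stard5 (0.25), Itgav to Hbegf (0.14) and Hilpda (0.17), and Itgb5 to Trpv2 (0.14) and Zfp36l1 (0.17). The uneven Itgal and Itgax had no near match among these candidates, and genes of their own lower abundance were not searched. Cd33 (0.60) and Ccz1 (0.65) were nearest to Itgal, and Mta2 (0.87) and Cbl (0.90) to Itgax. No subunit was among the 2 nearest genes of another, but Itgal and Itgax were not candidates, and genes beyond the nearest 2 were not listed.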

How the data were processed

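RNA-seq was compared between macrophages of day 3 wounds (5 libraries) and day 1 wounds (3 libraries), grouped by the labels' treatment. The authors deposited raw counts per gene, not normalised. The counter was featureCounts 1.6.0 with the Ensembl 106 annotation (GRCm39), per the file headers, whose command sets nothing for strand, read pairs or multiply placed reads. Per the submitters' processing notes Trimmomatic and DESeq2 were used. An aligner is not given in those notes or headers. Counts from 2 to 20 were even in 73.0% to 86.0% of cases per library, so both reads of a pair may have been counted. A count of 3, the detection floor, equals 0.0498 to 0.0722 CPM per library, for counting error only.

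Symbols were matched for 52081 genes (94.0%), and all 212 symbols of the lists were found. Genes were filtered with filterByExpr (minimum count 10), scaled with TMM and tested with the edgeR 4.0.16 quasi-likelihood F test, two-sided, Benjamini-Hochberg adjusted over all genes tested (threshold 0.05), in R 4.3.3. Alternatives used DESeq2 1.42.0, limma 3.58.1 voom, other scalings and filters (a stricter filter keeps genes with a mean of 5 CPM and 1 CPM in every library of a day) and left-out libraries. Figures used Python 3.11.15 and matplotlib 3.10.9, and the fit was tested on simulated data. Promoters came from RefSeq on GRCm38.p6 and gene loci from the file headers, with no coordinates converted.

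The subunits and gene lists were chosen with earlier results of these data known. All 10 subunits are named. Other subunits are named from a mean of 1 CPM. In the activation and ligand lists the called genes are named, filled up to 4 by those called with the stricter filter and then by mean CPM. The nearest 2 genes of each subunit are named, as are the top 2 of marker lists. Genes named outside the rule, after their values were seen, are Adgre1, Fcgr1, Chil3, Ly6c2, Plac8, Vcan, Tln1, Fermt3, Itgae, Itgb6 and the markers given as at 0. Alignment names in the recorded counting command carry partly other letters than the table's columns, so letters serve as names of columns.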

Additional observations from a re-analysis of the deposited data

Results flagged for a closer look

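Among 26 profiles of 5 day 3 libraries that were checked, 5 had 1 library far from the other 4, where chance gives about 1 in 20 for values that vary smoothly. That rate does not hold for Itgb4, Itgb8 and Itga7, which were at or near 0 in most libraries, and a gene at 0 in 4 of 5 libraries meets the criterion by construction. Itga7, an alpha chain known from muscle, was at 2.18 CPM in day 3 a and at 0 to 0.610 CPM in the other day 3 libraries. Itgb4, the beta chain of epithelial hemidesmosomes, was at 0.0949 CPM in day 3 a, from 5 counts, and at 0 in the other 4. Itgb8 was at 5.53 CPM in day 3 b and at 0 to 0.0380 CPM in the others. Plek was at 4375 CPM in day 3 b and at 1845 to 2427 CPM in the others, and Thbs1 was at 2649 CPM in day 3 b and at 1453 to 1626 CPM in the others. Day 3 b also held the highest neutrophil marker sum of day 3, and its part in these values was not tested.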

How the results depend on the processing

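Over all genes edgeR called 2, DESeq2 1041, limma voom 825, edgeR with no filter on low counts 1347, with the stricter filter 146, with halved counts 46 and without day 1 a and day 3 b together 25. Of the 10 subunits these called 0, 1 (DESeq2), 1 (voom), 2 (no filter) and 0 otherwise. Of the other integrin subunits DESeq2, voom and no filter called 4 each and the stricter filter 1. Of activation and adhesion genes they called 7, 3, 8 and 1 in the same order, and of ligands 7, 3, 7 and 2, with 1 ligand each for halved counts and for both libraries left out. Other scalings left each of these counts as it was. Leaving out 1 library at a time gave 0 to 59 calls over all genes (59 without day 1 b, 31 without day 3 b), 0 to 1 among ligands and 0 in the other lists. Fold changes changed sign among these for Itgam (-0.17 to 0.11), Itgax (-0.016 to 1.65), Itgal (-0.79 to 0.87) and Itgb5 (-0.9997 to 0.21), and without day 1 a and day 3 b for Itgam (-0.17) and Itgax (-0.014). The median of the subunits ran from -0.23 to 0.20, with 0.20 without day 1 c.

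Letters a to c occur on both days but the labels do not make them pairs, and the alignment names in the file headers carry partly other letters. Correlations of deviations for equal letters were 0.072, 0.0083 and 0.026. With these letters as a replicate block 0 genes were called (1343 at an unadjusted p under 0.05), and without it on the same 6 libraries 0 (1660). The subunits' median was 0.11 with the replicate block and 0.038 without, and Itgal was 0.45 and 0.051. With 3 and 5 pools, intervals for Itgal and Itgax span several fold in either direction.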
